A study of Homo sapiens with 3 samples.

Results

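The mucins are large glycoproteins that coat epithelial surfaces. Of 10 mucin genes chosen by name (8 for membrane mucins and 2 for secreted mucins), 8 were among the 16463 genes listed for AsPC-1 cells, an established human pancreatic cancer cell line. The 8 are MUC1, MUC13, MUC17, MUC3A, MUC12, MUC20 and MUC4, which encode membrane mucins, and MUC5B, which encodes a secreted one. MUC16 and MUC5AC have no listed value and were not analysed here. Total RNA was sequenced in 3 libraries, 1 for each condition, from cells labelled WT, which were transfected with si#1 or si#2, both directed against the long non-coding RNA LINC00941, or with a negative control siRNA (siNC). Each siRNA was used at 200 nM and RNA was taken after 24 h. The 3 conditions share the cell line, the medium with serum and the transfection reagent.

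Membrane mucins have a long extracellular part rich in serine, threonine and proline, which carries dense O-linked glycans, a membrane anchor and a short cytoplasmic tail. Secreted gel-forming mucins lack the anchor and join into polymers that make up mucus. Pancreatic cancers often produce mucins that normal ductal cells make little of, and fragments of some membrane mucins shed into blood serve as tumor markers.

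The reads assigned to the listed genes summed to 92510692 with si#1, 90867405 with si#2 and 88690997 with siNC. LINC00941 had 214 reads with si#1 and 273 with si#2, against 1551 with siNC, so the targeted RNA followed the labels. All 8 epithelial markers on the list were detected (KRT8 at 2042, 3889 and 3385 TPM with si#1, si#2 and siNC), none of 4 acinar and none of 4 endocrine markers was listed, and the 1 of 4 endothelial markers listed, VWF, had at most 26 reads. Of the 6 immune markers 2 were listed, with summed levels of 25.3, 21.4 and 26.5 TPM, nearly all from CD68. Of the 6 fibroblast markers 3 were listed, and LUM alone was abundant, at 130, 132 and 168 TPM with si#1, si#2 and siNC. Their part in the results below was not tested.

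The mucin mRNA of these cells came mostly from 3 membrane mucins. TPM is a level corrected for transcript length and depth, so it can be compared between genes. In the siNC library MUC13 stood at 18.5 TPM, MUC1 at 9.93 TPM and MUC17 at 4.58 TPM, and together they made up 98.3% of the summed TPM of the 8 genes. The next was MUC3A at 0.264 TPM, followed by MUC12 at 0.148, MUC20 at 0.103, MUC5B at 0.0321 and MUC4 at 0.0140 TPM. Counting intervals of neighbors in this order overlapped for MUC12 and MUC20, and for MUC5B and MUC4, so these pairs were not told apart at this depth. The order of the first 3 was the same with si#1 (5.36, 2.03 and 0.919 TPM for MUC13, MUC1 and MUC17) and with si#2 (5.15, 2.27 and 1.01 TPM). With si#1 the next was MUC12, at 0.183 TPM, above MUC20 at 0.0941 TPM and MUC3A at 0.0609 TPM. The counting intervals of MUC20 and MUC3A overlapped. With si#2 MUC12 stood at 0.182 TPM and MUC3A at 0.129 TPM, and their counting intervals overlapped.

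**Figure D1:**
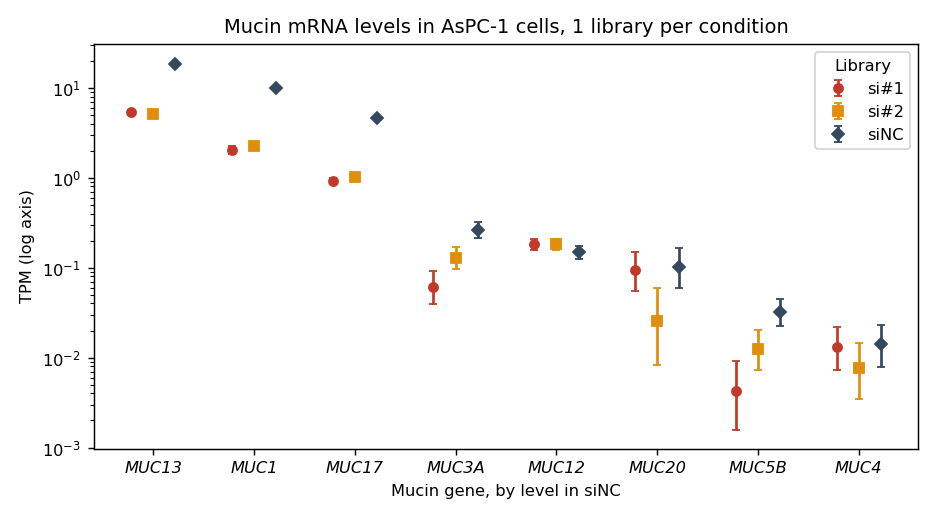
TPM (log axis) of the 8 listed mucin genes in the si#1, si#2 and siNC libraries, ordered by the level in siNC; bars are exact 95% counting intervals. MUC13, MUC1 and MUC17 lie lower with both siRNAs (5.36, 2.03 and 0.919 TPM with si#1) than with siNC (18.5, 9.93 and 4.58 TPM), and MUC12 does not.

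Summed over the 8 genes, the mucin level was 8.67 TPM with si#1 and 8.79 TPM with si#2, against 33.6 TPM with siNC. This is 25.8% and 26.2% of the siNC level on TPM. In reads scaled to library totals it was 28.5% and 31.0%. MUC13 made up 61.9% of the summed TPM with si#1 and 58.7% with si#2, against 55.1% with siNC, and MUC1 made up 23.4% and 25.8%, against 29.6% with siNC. The lower share of MUC1 held on TPM only. In reads, MUC1 had 339 of 2561 with si#1, 384 of 2733 with si#2 and 1102 of 8606 with siNC, so its share of reads did not fall. In bulk RNA, fewer cells that express a mucin and less mucin mRNA per cell cannot be told apart.

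Fold changes compare read counts on a log2 scale, with 1 added to each count and the libraries brought to a common distribution by quantile normalization, and a gene was called changed at 2-fold or more, the rule of the study. With 1 library per condition there is no replicate check and no test, and the 95% intervals cover counting error alone. The siNC library serves both comparisons. With si#1, 5 of the 8 mucins fell and none rose, where 6.80% of all listed genes fell and 5.22% rose. With si#2, 5 of 8 fell and none rose, where 7.17% of all genes fell and 5.49% rose. MUC17, MUC1, MUC13 and MUC5B, 4 of the 8, fell with both siRNAs, as did 3.51% of all genes, and 6.04% of all genes changed with both in the same direction. The call of MUC5B with si#2 was lost on log2(TPM + 1), with a pseudocount of 10 and on log2(TPM + 0.01), which leaves 3 of 8 with both, and with protein-coding genes alone MUC3A joined, which makes 5. The median log2 fold change of the 8 mucins was -1.69 with si#1 and -1.21 with si#2, beside 0.03 and 0.02 over all genes. The mucins were chosen with earlier results of these data known, so these counts describe the chosen genes and are no test of enrichment.

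**Figure D2:**
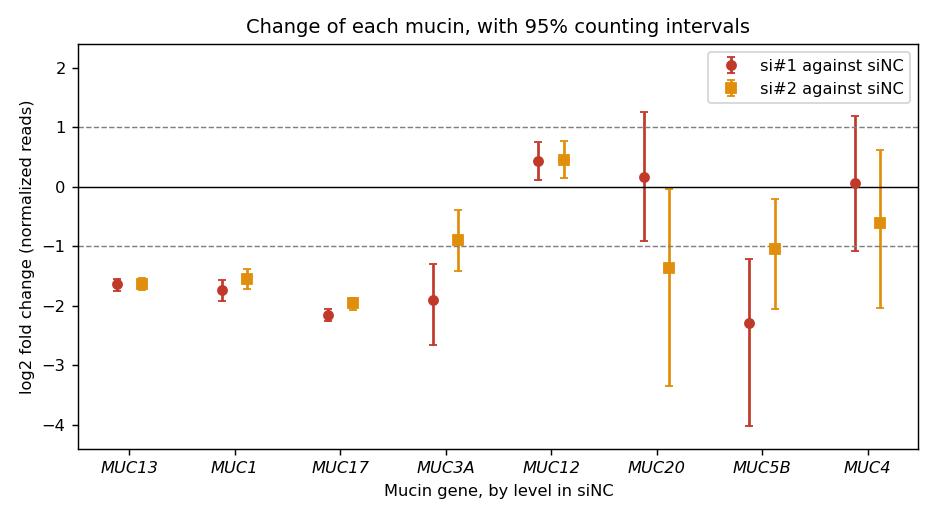
Log2 fold change of each mucin gene against siNC, with exact 95% counting intervals, for si#1 and si#2; dashed lines mark 2-fold. MUC13, MUC1 and MUC17 lie past 2-fold with both siRNAs with intervals that end beyond it, while the intervals of MUC20, MUC5B and MUC4, which had few reads, are wide.

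On normalized reads MUC17 had the largest fall of the 3 abundant mucins. On log2(TPM + 1) its values were the smallest of the 3, at -1.37 with si#1 and -1.30 with si#2. MUC17 has the lowest TPM of the 3, so the added 1 weighs most on it. Without an added value its log2 TPM ratios were -2.32 and -2.19, the largest falls of the 3. On log2(TPM + 0.01) MUC1 with si#1 (-2.09) was level with MUC17 (-2.07). MUC17 encodes a membrane mucin of the intestinal glycocalyx with EGF-like domains and lies on chromosome 7 (chr7:101020081-101058859, plus strand, GRCh38). MUC17 had 901 reads with si#1 and 1016 with si#2, against 3979 with siNC. Both siRNA libraries were low and close to each other. On the log2 scale MUC17 differed from siNC by -2.15 with si#1 (95% interval -2.26 to -2.05) and by -1.96 with si#2 (-2.06 to -1.86), so that 22.5% and 25.7% of its siNC level remained. Between the siRNAs it differed by -0.19 (si#1 minus si#2, -0.32 to -0.06), under 2-fold.

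MUC13, the most abundant mucin here, encodes a small membrane mucin of the gastrointestinal tract (chr3:124905442-124934751, minus strand). MUC13 had 1054 reads with si#1 and 1042 with si#2, against 3221 with siNC. The siRNA libraries were nearly equal, and siNC stood well above them. The log2 fold change of MUC13 was -1.64 (-1.74 to -1.54) with si#1 and -1.63 (-1.73 to -1.53) with si#2, leaving 32.1% and 32.3%. The difference between the siRNAs, -0.01 on the log2 scale, had an interval from -0.13 to 0.12.

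MUC1, whose shed extracellular part is the tumor marker CA15-3, lies on chromosome 1 (chr1:155185824-155192915, minus strand). Its cytoplasmic tail binds beta-catenin and other signaling proteins. MUC1 had 339 reads with si#1 and 384 with si#2, against 1102 with siNC. Again both siRNA libraries were low. The log2 fold change of MUC1 was -1.73 (-1.92 to -1.56) with si#1 and -1.55 (-1.72 to -1.38) with si#2, leaving 30.1% and 34.2%.

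Among the 3 abundant mucins, the change on reads and that on TPM differed most for MUC1. On TPM it was lower by 4.88-fold with si#1 and by 4.38-fold with si#2 (log2 TPM ratios of -2.29 and -2.13). The log2 TPM ratios were -2.32 and -2.19 for MUC17 and -1.79 and -1.85 for MUC13, nearer to their values on reads. These ratios too lay below the values on reads, so part of the gap of MUC1 was not particular to it. The reads per unit of TPM, a ratio that grows with the length of the transcripts to which reads were assigned, were 167 with si#1 and 169 with si#2, against 111 with siNC. Set relative to the median gene of each library, this ratio was 1.33 times as high with si#1 and 1.31 times as high with si#2 as with siNC (0.41 and 0.39 on the log2 scale). The other mucins averaging 100 or more reads, MUC12, MUC13 and MUC17, moved by between -0.01 and 0.00 on that scale. Among the 12106 genes that averaged 100 or more reads, 15 (0.124%), MUC1 included, had a shift at least as high with both siRNAs. GENCODE lists 26 MUC1 transcripts of 177 to 1811 nt, but the deposited values rest on RefSeq models, whose lengths are not shown here. Which transcripts changed was not analysed here, as the table gives 1 value per gene.

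**Figure D3:**
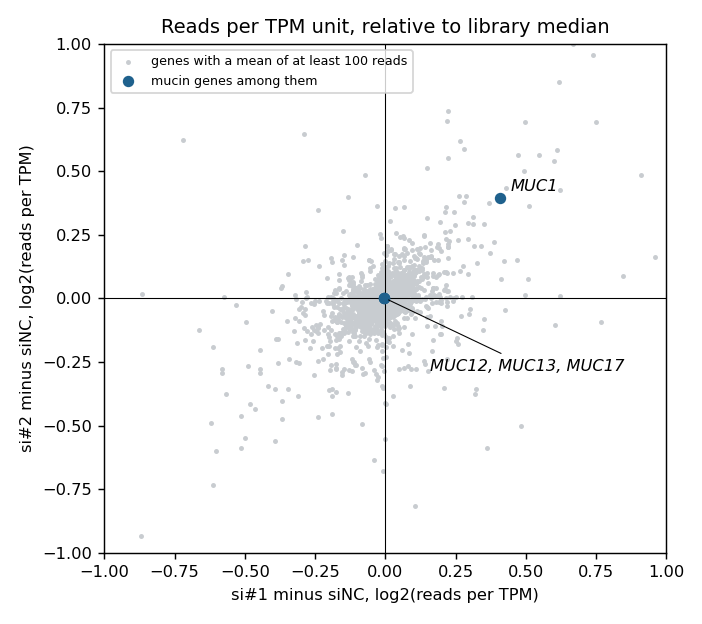
Shift of log2(reads per TPM), relative to the library median, with si#1 (x axis) and si#2 (y axis) against siNC, for genes averaging 100 or more reads (grey; 14 genes lie outside the axes) and the 4 mucins among them (blue). MUC1 lies at 0.41 and 0.39, and MUC12, MUC13 and MUC17 lie at the origin.

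The promoters of MUC17, MUC13 and MUC1, the 3 abundant mucins that fell with both siRNAs, are shown because members that move together can be compared in sequence (RefSeq, GRCh38.p14, 250 bases before to 50 after the start of the gene, 5′ to 3′ along the gene). Windows were found for 7 of the 10 mucins, and for MUC1 the first of those listed is given. Capitals mark every match on either strand. The letters searched were CGGAA for ETS-1 and, for ELK-1, CTTCC, both as the study used them for the LINC00941 promoter. Matches to GATAA, the core letters of the zinc finger factors to which GATA6 belongs, are marked too. So are those to a FOXA core, which was searched as TNTTTAC. The last was the core promoter box read by TBP, with the letters TATAAA. The ETS-1 and ELK-1 letters can overlap, since the run CGGAAG holds the first and, read on the other strand, the second.
MUC17 (chr7:101019831-101020130, plus strand): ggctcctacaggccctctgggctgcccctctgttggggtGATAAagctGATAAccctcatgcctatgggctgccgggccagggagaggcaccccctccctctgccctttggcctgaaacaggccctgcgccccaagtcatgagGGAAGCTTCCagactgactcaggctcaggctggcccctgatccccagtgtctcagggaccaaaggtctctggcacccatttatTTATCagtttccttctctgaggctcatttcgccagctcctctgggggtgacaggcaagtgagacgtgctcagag
MUC13 (chr3:124934702-124935001, minus strand): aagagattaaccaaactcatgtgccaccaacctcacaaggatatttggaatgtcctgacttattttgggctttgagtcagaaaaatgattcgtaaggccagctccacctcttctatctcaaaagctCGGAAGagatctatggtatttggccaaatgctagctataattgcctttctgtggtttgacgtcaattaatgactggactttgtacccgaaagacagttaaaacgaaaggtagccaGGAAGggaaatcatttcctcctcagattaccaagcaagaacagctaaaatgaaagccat
MUC1 (chr1:155192866-155193165, minus strand): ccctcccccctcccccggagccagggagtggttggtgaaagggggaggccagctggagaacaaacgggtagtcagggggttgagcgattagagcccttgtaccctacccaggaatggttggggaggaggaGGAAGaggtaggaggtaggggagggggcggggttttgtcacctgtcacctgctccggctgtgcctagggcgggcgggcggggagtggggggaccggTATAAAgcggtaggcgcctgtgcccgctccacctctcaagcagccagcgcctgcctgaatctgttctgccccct
CTTCC matched in each of the 3 windows, as in 71.9% of all 35116 promoter windows of the same length. CGGAA matched in that of MUC13 alone among the 3, and in 34.9% of all windows. GATAA matched 3 times in the MUC17 window and in neither other, beside 22.7% of all windows, and TATAAA matched in that of MUC1, 24 bases before the start, beside 11.5%. TNTTTAC matched in none of the 3 and in 10.8% of all windows. The windows also differed in base composition, with G and C at 60.0% in MUC17, 41.0% in MUC13 and 65.7% in MUC1, so the 3 promoters shared only the CTTCC match of the letters searched. CTTCC also matched in the other windows found, those of MUC3A, MUC4, MUC16 and MUC12, so it is not particular to the mucins that fell.

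MUC5B, the 1 secreted mucin listed, encodes a gel-forming mucin of airway and gland mucus (chr11:1223066-1262172, plus strand). MUC5B had 6 reads with si#1 and 16 with si#2, against 35 with siNC. It passed 2-fold with both siRNAs, at -2.29 on the log2 scale for si#1 (-4.01 to -1.21) and -1.05 for si#2 (-2.05 to -0.20). The value with si#2 lies just past 2-fold and its interval reaches well inside it. At 0.0321 TPM or less in every library, the level of MUC5B was low throughout.

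MUC3A, a membrane mucin of the intestine, passed 2-fold with si#1 only. MUC3A had 24 reads with si#1 and 52 with si#2, against 92 with siNC. Both siRNA libraries were below siNC, and si#1 was the lower. On the log2 scale MUC3A stood at -1.91 for si#1 (-2.66 to -1.29) and -0.89 for si#2 (-1.42 to -0.40), and the siRNAs differed by -1.02 (si#1 minus si#2, -1.81 to -0.33). Reads of MUC3A may be shared with its near-identical copy MUC3B, which has no listed value here, so the counts are uncertain.

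MUC20 and MUC4 lie side by side on chromosome 3 (chr3:195720978-195733551, plus strand, and chr3:195746771-195811929, minus strand). MUC4 is a ligand of the receptor ERBB2, and MUC20 binds the receptor MET. MUC20 had 17 reads with si#1 and 5 with si#2, against 16 with siNC, and MUC4 had 15 and 9, against 15 with siNC. MUC20 passed 2-fold with si#2 (log2 fold change -1.37, -3.35 to -0.03), whereas with si#1 its value was 0.17 (-0.90 to 1.25). MUC4 did not pass, at 0.06 (-1.07 to 1.19) and -0.60 (-2.03 to 0.63). The interval of MUC4 with si#1 spans 2-fold in both directions, so a change of that size was not detectable at this depth.

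MUC12, a neighbor of MUC17 and MUC3A, did not pass 2-fold. MUC12 had 205 reads with si#1 and 209 with si#2, against 146 with siNC. The siRNA libraries were nearly equal and above siNC, opposite to MUC3A and MUC17. On the log2 scale MUC12 stood at 0.43 for si#1 (0.12 to 0.75) and 0.45 for si#2 (0.14 to 0.77). The only other listed gene with a mucin symbol was MUC12-AS1, a non-coding RNA that GENCODE places inside MUC12 on the opposite strand (chr7:101014319-101017665). MUC12-AS1 had 189 reads with si#1 and 329 with si#2, against 229 with siNC, and its TPM was 39.1, 66.3 and 65.8 times that of MUC12 with si#1, si#2 and siNC. Its log2 fold changes were -0.35 (-0.64 to -0.07) and 0.42 (0.17 to 0.67). The library kit keeps strand, but a strand setting for the counting is not stated, so if strand was not used, reads of MUC12 and MUC12-AS1 in the shared interval cannot be told apart.

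Between si#1 and si#2 themselves, MUC3A, MUC20 and MUC5B (3 of 8) differed 2-fold or more, where 8.23% of all genes did. All 3 had a mean of at most 56 reads. For MUC1, MUC12, MUC13 and MUC17, with means of 187 to 1965 reads, the differences between the siRNAs ran from -0.19 (MUC1 and MUC17) to -0.01 (MUC13), so those genes stood close together in the siRNA libraries.

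**Figure D4:**
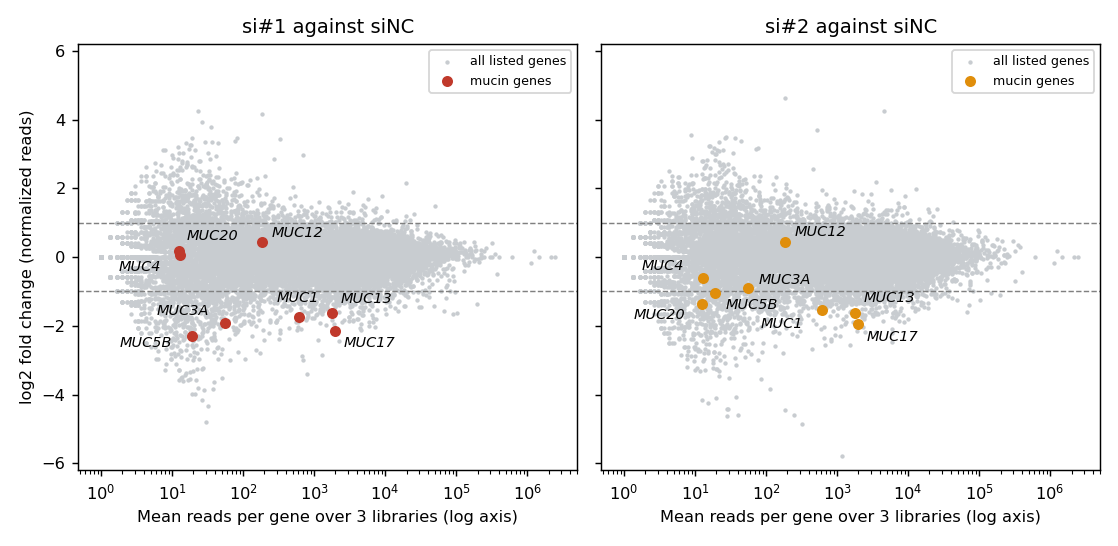
Log2 fold change against siNC by mean reads per gene (log axis) for all 16463 listed genes (grey) and the 8 mucins, with si#1 on the left and si#2 on the right; dashed lines mark 2-fold, and the spread of all genes widens toward few reads. MUC17, MUC1 and MUC13 lie past 2-fold with both siRNAs at means of 1965, 608 and 1772 reads.

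Transcript length moved with the changes over all genes. Of protein-coding genes with a canonical GENCODE transcript of 10 kb or more, 13.7% of 505 fell with both siRNAs, against 3.84% of those of 5 to 10 kb, 1.45% of those of 2 to 5 kb and 1.04% of those under 2 kb. MUC17, MUC5B, MUC12, MUC4 and MUC3A have canonical transcripts of 14352, 17911, 16366, 16756 and 11248 nt. By these lengths they are in the class where falls were most frequent. With siNC, the reads per TPM relative to the library median were 2.14 for MUC3A, against 5.33 for MUC17. The deposited MUC3A value thus rests on a shorter transcript model, and its class is uncertain. MUC1 and MUC13, which fell with both siRNAs, have transcripts of 1811 and 2879 nt. MUC12, among the longest, did not pass 2-fold. The part of length in the fall of MUC17 and MUC5B was not tested.

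MUC3A, MUC12 and MUC17 lie in tandem within chromosome 7. Of the 20 other genes listed within 200 kb of these 3, none passed 2-fold with both siRNAs in either direction, which for so few genes is near the 6.04% of all genes that did, and the median of the 20 on the log2 scale was 0.23 for si#1 and 0.41 for si#2. Of the 26 genes around MUC1, of the 5 around MUC13, of the 6 around MUC20 and MUC4 and of the 3 around MUC5B, none passed with both siRNAs, beside the same 6.04%. Next to MUC13, HEG1, which encodes a mucin-like membrane protein, fell with si#1 (12 reads, against 66 with siNC, log2 fold change -2.34), and its value with si#2 was -0.86 at 37 reads.

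**Figure D5:**
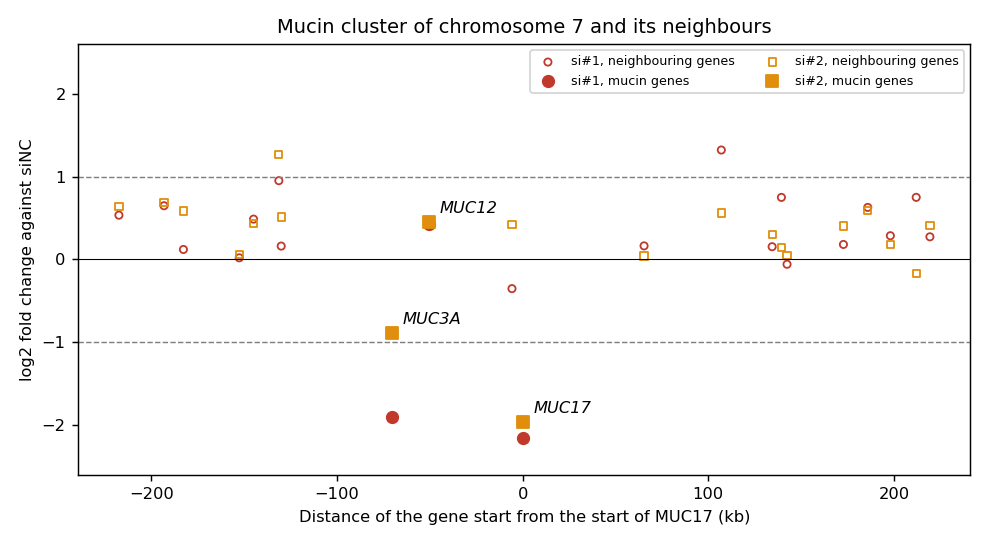
Log2 fold change against siNC of MUC3A, MUC12 and MUC17 (filled) and of other genes listed within 200 kb of MUC17 with a mean of at least 10 reads (open), by distance of the gene start from that of MUC17 in kb; circles are si#1, squares si#2, and dashed lines mark 2-fold. MUC17 lies at -2.15 and -1.96, while its neighbors, MUC12 included, lie above -1 with both siRNAs except MUC3A with si#1.

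Of 15 other mucins and mucin-like genes on a list, CD164, PODXL and OVGP1 were listed. CD164, a sialomucin of endosomes and the cell surface, had 8508 reads with si#1 and 9426 with si#2, against 14018 with siNC (log2 fold changes of -0.75 and -0.53, under 2-fold). PODXL, the anti-adhesive sialomucin podocalyxin, fell with si#1 (1111 reads, against 2460 with siNC, -1.18) and had -0.55 with si#2. OVGP1, the oviduct glycoprotein, rose with both (2.71 and 1.09), but on 33 and 10 reads, against 5 with siNC. Over all genes 2.53% rose with both siRNAs.

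Among 23 transcription factors known to act on mucin genes or in mucin-producing epithelia, 19 were listed, and 1, FOXA1, changed with both siRNAs, a share near the 6.04% of all genes that did. FOXA1, a pioneer factor of endoderm-derived epithelia, had 116 reads with si#1 and 98 with si#2, against 287 with siNC. Both siRNA libraries were low, with FOXA1 at -1.38 on the log2 scale with si#1 (-1.71 to -1.07) and at -1.65 with si#2. GATA6, a factor of the pancreatic and intestinal epithelium, fell with si#1 (765 reads, against 1707 with siNC, -1.20) and had -0.76 with si#2. The ETS factor EHF fell with si#2 (24317 reads, against 49515 with siNC, -1.05) and had -0.98 with si#1. FOXA3 rose with si#1 on 49 reads, against 20 with siNC (1.28), and had -0.05 with si#2. The median of the 19 was -0.35 with si#1 and -0.05 with si#2.

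Mucin-type O-glycosylation starts with the GALNT transferases, which attach the first sugar to serine and threonine. Of 31 enzymes of that pathway 21 were listed, 3 rose with both siRNAs and 1 fell, where 2.53% of all genes rose and 3.51% fell. GALNT9 had 1050 reads with si#1 and 937 with si#2, against 399 with siNC, log2 fold changes of 1.34 (1.17 to 1.51) and 1.19 (1.03 to 1.37). The others were GCNT1 (1.93 and 1.03), GALNT18 (1.29 and 1.92) and ST6GALNAC1 (-1.28 and -1.45), none of which exceeded 69 reads. C1GALT1, which builds the core 1 structure, did not pass 2-fold (-0.64 and -0.96). The median of the 21 was 0.17 with si#1 and 0.25 with si#2.

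Of 22 goblet cell secretory partners, which fold, package or accompany secreted mucins, 16 were listed. None of the 16 passed 2-fold with both siRNAs, which for so few genes is near the 6.04% of all genes that did. AGR2, a disulfide isomerase needed for mucin folding in mouse intestine, fell with si#2 (3578 reads, against 9212 with siNC, -1.33) and had -0.94 with si#1. The trefoil factor genes TFF1, TFF2 and TFF3 did not pass, with values of 0.71, 0.26 and 0.86 with si#1 and 0.80, 0.82 and 0.52 with si#2. VAMP8, a vesicle SNARE of mucin exocytosis and the most abundant of the list in each library, had 0.33 and 0.02. The medians were 0.15 and 0.02.

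All 19 genes for partners of membrane mucins were listed. EZR, which encodes the cytoskeletal linker ezrin, and LGALS1, which encodes a galectin, were the most abundant, and EZR had 0.29 and 0.45. PDZK1, which encodes a PDZ-domain scaffold of the apical membrane, rose with both siRNAs (2.91 and 1.33), but on 38 and 12 reads, against 5 with siNC. It was the only 1 of the 19 to change with both, a share near the 6.04% of all genes that did. EGFR fell with si#1 (18560 reads, against 48205 with siNC, -1.44) and had -0.78 with si#2, and LGALS9 fell with si#1 on 14 reads, against 35 with siNC. The medians were 0.21 and 0.31. Of 7 proteases that can shed membrane mucins 5 were listed. None of these passed with both siRNAs, which for so few genes is near the same 6.04%. MMP14 rose with si#1 (4190 reads, against 1930 with siNC, 1.08) and had 0.93 with si#2, while the most abundant, ADAM9 and MMP7, had 0.10 and -0.54 with si#1 and -0.49 and -0.60 with si#2. The medians of the 5 were -0.15 and -0.32.

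The genes whose pair of log2 fold changes lay nearest to that of each mucin that fell with both siRNAs were found among protein-coding genes averaging 100 or more reads, by Euclidean distance over the 2 comparisons. For MUC17 these were NPIPB4 (distance 0.11), whose reads are uncertain because close copies of it exist, and NFAT5 (0.12). For MUC1 they were KMT2D (0.024) and MYRF (0.046), for MUC13 EP300 (0.031), and for MUC5B ANKHD1 (0.24) and PROSER1 (0.32). The likeness rests on 3 libraries, and both fold changes share siNC.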

How the data were processed

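The authors mapped paired-end reads to the GRCh38 genome by HISAT2 and quantified RefSeq genes by StringTie, with versions and strand setting not stated. Read counts and TPM were deposited per library for 16463 genes, and the lowest count in any library is 1. The deposited columns headed FPKM equal the read counts in all 16463 genes and were not used. The authors' normalized log2 values served as a check and differed from those computed here by at most 5e-09. The authors' fold changes and volumes, deposited as scores, were not used. A second sheet repeats other genes, and its 15 per-sample columns were not used.

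Reads were transformed to log2(read count + 1), quantile-normalized over all listed genes, and called at 2-fold. Intervals are exact: Clopper-Pearson for the ratio of 2 counts, shifted by the normalization, and Poisson for a level, at 95%, and cover counting error alone. The calls were tested on simulated data. Positions came from RefSeq (16437 genes matched), transcript lengths from GENCODE release 44 (98.4% of protein-coding genes). All mucins are named, as are list genes past 2-fold with both siRNAs at a mean of at least 50 reads or, failing that, the 2 most abundant, and genes of nearest pattern, of which 1 is not reported here. Others past 2-fold, the neighbors and the trefoil factors were named after their values were seen. Members and lists were chosen with earlier results of these data known. Alternatives used edgeR 4.0.16 for TMM and DESeq2 1.42.0 for size factors (R 4.3.3), and Python 3.11.15.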

Additional observations from a re-analysis of the deposited data

How the results depend on the processing

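MUC17, MUC1 and MUC13 stayed past 2-fold, and lower, with both siRNAs under all 9 alternatives: quantile-normalized log2(TPM + 1), TMM, DESeq2 size factors, total read count, a pseudocount of 10, a mean of at least 10 or 100 reads, protein-coding genes alone, and log2(TPM + 0.01), which was chosen after seeing the data. Their log2 fold changes ran from -2.21 (MUC17 with si#1) to -1.30 (MUC17 with si#2). The filters on mean reads left the values of these genes as in the main analysis. The TMM, DESeq2 and total count factors were nearly equal, so the 9 alternatives are not independent checks. MUC5B passed under 7 of 8 with si#1 and 5 of 8 with si#2. On log2(TPM + 1), 3 mucins passed with si#1, 3 with si#2 and 0 between the siRNAs, and on log2(TPM + 0.01) 5, 4 and 2 did. A gene below 1 TPM in both libraries lies within 2-fold on log2(TPM + 1) before normalization. MUC3A, MUC20 and MUC5B, at 0.264, 0.103 and 0.0321 TPM with siNC and below 1 TPM with both siRNAs, were thus not callable there. On log2(TPM + 0.01) the cause was not tested. With both siRNAs the count was 3 under both TPM settings, a pseudocount of 10 and a mean of at least 100 reads. It was 5 with protein-coding genes alone and at 1.5-fold, and 4 otherwise. With a pseudocount of 10, 3 passed with si#2 and 0 between the siRNAs. At 1.5-fold, 5 passed with si#1, 7 with si#2 and 4 between the siRNAs. With a mean of at least 100 reads, where 4 mucins remain by construction, the counts were 3, 3 and 0. MUC3A passed with si#2 under 1 of 8 alternatives. In reads scaled to library totals, the summed level was 28.5% of siNC with si#1 and 31.0% with si#2. Without MUC13 it was 21.9% with si#1 and 24.1% with si#2 on TPM, and 26.8% and 30.6% in the scaled reads. The median log2 fold change of all genes lay between -0.02 and 0.05 under every alternative. No paired analysis was possible because each condition has 1 library. Low read counts limit MUC4, MUC20, MUC5B and MUC3A.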
